A study of Mus musculus with 48 samples.

Results

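The collagen chains were the 44 protein-coding genes with a name of the form Col, number, a, number, among 56748 genes listed for mouse tibialis anterior, a fast muscle of the shin. The rule that picks them uses name and biotype and no measured value. By structure they were 11 fibrillar chains, 6 chains of basement membrane type IV, 6 chains of the beaded filaments of type VI, 9 fibril-associated chains, 4 transmembrane chains, 3 chains of short-chain networks, 2 multiplexins, the anchoring-fibril chain *Col7a1* and 2 others. Of the 44 genes, 40 passed a filter on low counts and were tested. The other 4 were *Col9a3*, *Col25a1*, *Col6a4* and *Col10a1*, whose highest counts in any library were 10, 7, 4 and 3.

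RNA with poly-A tails was sequenced from the tibialis anterior of 48 male mice, aged 39 to 55 weeks per the labels, 1 library per mouse. The mice formed 24 groups of 2, given by genotype, condition and 6 circadian times (CT18, CT22, CT26, CT30, CT34 and CT38). The FoxP1SkmKO mice were Foxp1fl/fl; Acta1-cre. In them, a promoter active in skeletal muscle fibers drives Cre and deletes the transcription factor gene *Foxp1*, so that fibroblasts, endothelial cells and other non-fiber cells of the muscle are not targeted. The WT mice carried no Cre. Their genotype is given as C57BL/6J in the sample labels and as homozygous for the floxed *Foxp1* allele in the series' design text, and which of these applies was not settled here. KPC mice received an injection of KPC cells, a line from the pancreatic tumor of an engineered mouse, into the pancreas, and control mice received sterile PBS by the same surgery. All groups shared the surgery, and all mice were moved from 12 h of light and 12 h of darkness to constant darkness, with the first collection 18 h later. Each time was sampled in 1 cycle only, and the tumors of single mice are not described in the labels.

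A collagen molecule is a triple helix of 3 chains, which may come from the same gene or from related genes. Fibrillar collagens (types I, III and V) form the cables of tendon and of the connective tissue between muscle fibers, type IV forms the sheet-like network of basement membranes around fibers and capillaries, and type VI forms beaded filaments next to that sheet. Loss of type VI chains causes inherited muscular dystrophies. In muscle, fibroblasts and tenocytes make most fibrillar and type VI collagen, and endothelial and mural cells add type IV. In bulk RNA, fewer cells of a type and less RNA per cell cannot be told apart, and this holds for every difference below.

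Library totals ranged from 14480867 to 20787784 counts, with a median of 16602091. Summed FPKM (fragments scaled to exon length and to library depth) over 7 muscle fiber genes ranged from 41952 to 58027 and was high in every library. The *Foxp1* FPKM had medians of 0.615 in WT control, 0.636 in WT KPC, 0.585 in FoxP1SkmKO control and 0.531 in FoxP1SkmKO KPC mice, and its ranges overlapped between genotypes. The FPKM of *Foxp1* over all its exons therefore did not separate the genotypes in whole muscle. No pair of mice in a group had counts as alike as repeat deposits of 1 library would be.

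Among the collagen genes, *Col4a1* and *Col4a2* share 1 promoter region and point away from each other. On chromosome 8 of GRCm39, *Col4a1* (ENSMUSG00000031502) spans 11248423 to 11362826 on the minus strand and *Col4a2* (ENSMUSG00000031503) spans 11362805 to 11499287 on the plus strand. Their annotated 5 prime ends overlap by 22 bases, shown here because the genes on either side of this stretch had the highest collagen levels and nearly the same time course. The plus strand is printed, and the capitals mark the letters GGGCGG of a GC box.

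Col4a1 and Col4a2, chr8:11362805-11362826 (GRCm39): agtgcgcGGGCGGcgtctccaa

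The promoters of 4 other genes are shown as examples from the fibrillar and type VI chains. They come from RefSeq on the GRCm38.p6 build and are printed in the direction of the gene, ending at its start. *Col5a3* had the largest amplitude over the day among the called collagen genes, *Col3a1* and *Col1a2* are fibrillar chains that were lower in WT KPC mice, and *Col6a1* holds the forkhead letters GTAAACA. Capitals mark matches of 5 letter strings searched on both strands, namely GTAAACA (forkhead), CACGTG (E-box), GGGCGG (GC box), CCAAT and TATAAA.

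Col5a3, chr9:20815068-20815317, minus strand: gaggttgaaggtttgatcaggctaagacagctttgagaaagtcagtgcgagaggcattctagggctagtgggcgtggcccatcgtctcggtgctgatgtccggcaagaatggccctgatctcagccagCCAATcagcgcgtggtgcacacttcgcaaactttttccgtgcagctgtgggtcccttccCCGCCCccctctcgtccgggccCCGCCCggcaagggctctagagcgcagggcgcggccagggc
Col3a1, chr1:45311288-45311537, plus strand: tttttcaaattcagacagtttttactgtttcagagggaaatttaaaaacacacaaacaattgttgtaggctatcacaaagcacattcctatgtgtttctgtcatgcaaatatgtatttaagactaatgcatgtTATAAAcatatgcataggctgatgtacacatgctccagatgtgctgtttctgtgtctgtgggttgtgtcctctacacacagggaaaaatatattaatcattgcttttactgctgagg
Col1a2, chr6:4505368-4505617, plus strand: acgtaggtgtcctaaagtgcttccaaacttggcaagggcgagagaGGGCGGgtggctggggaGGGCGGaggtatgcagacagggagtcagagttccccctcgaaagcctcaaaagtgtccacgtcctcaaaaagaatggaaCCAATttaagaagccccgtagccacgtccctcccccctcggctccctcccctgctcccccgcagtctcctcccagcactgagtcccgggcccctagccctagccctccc
Col6a1, chr10:76726045-76726294, minus strand: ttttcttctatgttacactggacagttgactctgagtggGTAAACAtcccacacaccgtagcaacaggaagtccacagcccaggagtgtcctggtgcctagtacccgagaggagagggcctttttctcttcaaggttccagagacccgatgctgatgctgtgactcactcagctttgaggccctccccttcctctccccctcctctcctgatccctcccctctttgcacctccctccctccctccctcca

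Of the 44 genes, 35 had a promoter in this table, with 38 windows of 250 bases before and 50 bases after a start. GTAAACA was in 1 of the 38 collagen windows, that of *Col6a1*, or 2.63%, and in 3.66% of all 32544 windows. CACGTG was in 0 of the 38 and in 7.17% of all windows. GGGCGG was in 23 collagen windows, or 60.5%, against 35.9% of all windows. CCAAT was in 34.2% of collagen windows against 37.4% of all, and TATAAA in 13.2% against 13.6%. The windows of *Col4a1* and *Col4a2* overlap each other. A match is a string of letters and not a bound site, and a missing match says only that these letters are not in this window.

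In WT control mice the type IV pair had the highest FPKM. *Col4a1* was at 19.9 ± 5.27 FPKM (SD, n = 12 mice over the 6 times) and *Col4a2* at 19.8 ± 5.51. Next came the fibrillar chains *Col1a1* at 15.4 ± 7.96 and *Col3a1* at 11.2 ± 3.93 FPKM, the type VI chain *Col6a1* at 9.81 ± 1.75 and the type I partner *Col1a2* at 8.27 ± 3.11. *Col6a2*, *Col7a1*, *Col5a3*, *Col15a1*, *Col5a1* and *Col6a3* followed at means of 4.999, 4.64, 4.34, 3.76, 2.92 and 2.90 FPKM. Down the whole order of 44 genes, the step from *Col23a1* (0.464 ± 0.123 FPKM) to *Col4a4* (0.265 ± 0.0423) was the single neighboring pair whose means lay farther apart than the sum of their SDs. The order is therefore a gradual one. *Col22a1*, a chain of the junction between muscle and tendon, was at 2.30 ± 0.457 FPKM, and *Col24a1*, a minor fibrillar chain, at 1.67 ± 0.26. The cartilage chain *Col2a1*, and *Col11a1*, had median FPKM under 0.1.

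**Figure D1:**
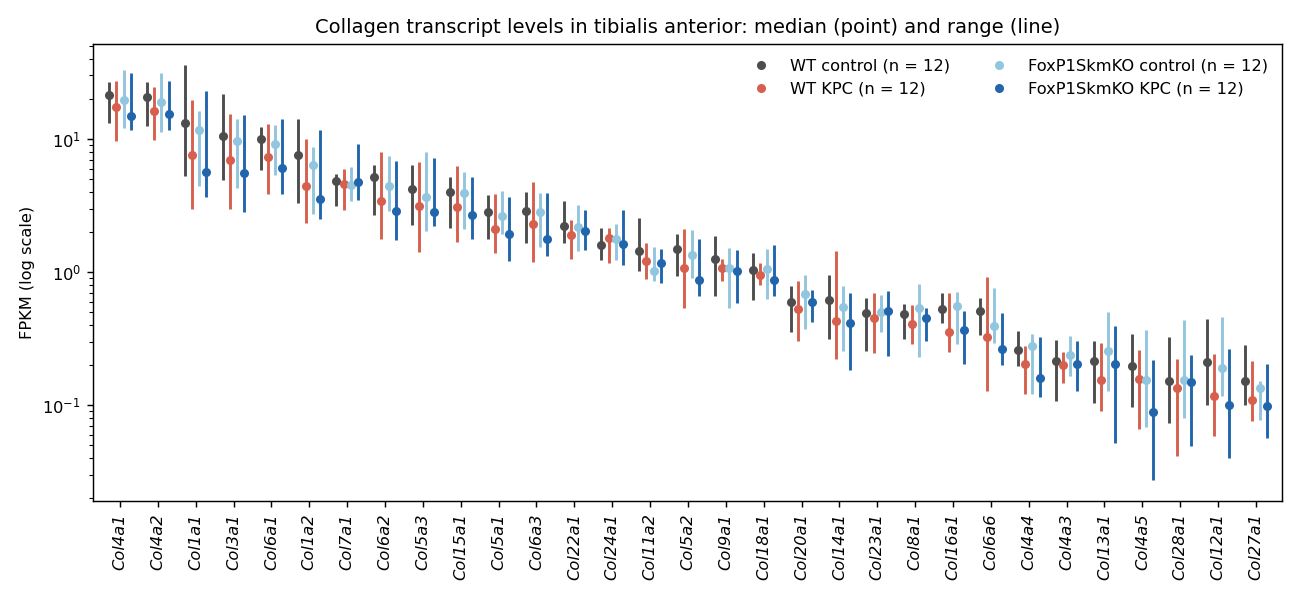
FPKM of the 31 collagen genes with a median of at least 0.1 FPKM, on a log axis. Points are medians and lines run from the lowest to the highest of 12 mice in each of the 4 genotype and condition groups. *Col4a1* and *Col4a2* lie at the top, and the ranges of neighboring genes overlap.

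Among the pairs of chains compared, the FPKM ratio of *Col4a1* to *Col4a2* varied least, with a highest value 1.31 times the lowest. This spread was 1.61 times for *Col6a1* over *Col6a2*, 1.99 for *Col6a1* over *Col6a3* and 2.01 for *Col1a1* over *Col1a2*. For *Col3a1* over *Col1a1*, chains of different types, it was 2.36 times. The ratio of *Col4a1* to *Col4a2*, which join in 1 trimer, had a median of 1.03 over the 48 libraries and ranged from 0.885 to 1.16. The ratio of *Col1a1* to *Col1a2* had a median of 1.71 (1.27 to 2.55), and that of *Col6a1* to *Col6a2* a median of 1.97 (1.63 to 2.62). The low type IV pair *Col4a3* and *Col4a4* had a wider ratio, with a median of 0.978 (0.401 to 1.94). Between types, *Col3a1* over *Col1a1* had a median of 0.886 (0.465 to 1.097), and *Col1a1* over *Col4a1* ranged from 0.249 to 1.66, with medians of 0.717 in WT control, 0.419 in WT KPC, 0.576 in FoxP1SkmKO control and 0.356 in FoxP1SkmKO KPC mice. Between the 2 mice of a group, the member with the higher *Col6a1* FPKM also had the higher *Col6a3* FPKM in 24 of 24 groups, the higher *Col6a2* FPKM in 23 and the higher summed fibroblast marker FPKM in 23. The mouse with more *Col1a1* had more *Col1a2* in 23 groups, a higher sum of tenocyte markers in 21 and a higher sum of muscle fiber markers in 13. Genes compared within a mouse share its library and scaling factor, and no test was made on these counts.

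The spread between mice of a group was narrower for the abundant type IV pair than for the type I pair. For *Col4a1* the higher mouse had a median of 1.11 times the FPKM of the lower, and at most 1.48 times. For *Col1a1* the median was 1.58 times and the highest 3.79 times, in FoxP1SkmKO KPC mice at CT22. Other chains of both classes lay outside this contrast, with a median of 1.14 times for fibrillar *Col24a1*, 1.16 for *Col5a3* and 1.545 for type IV *Col4a6*. *Col1a2* had its widest pair, 3.35 times, in the FoxP1SkmKO KPC group at CT22, whose replicate 1 had the highest collagen share of all 48 libraries.

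Collagen reads were a small share of the muscle transcriptome. They made up 0.0957% ± 0.0192 of all counts in WT mice under control conditions, 0.0740% ± 0.0246 in those with KPC tumors, 0.0901% ± 0.0213 in FoxP1SkmKO control mice and 0.0692% ± 0.0248 in FoxP1SkmKO KPC mice (SD, n = 12 each). The lowest share, 0.0418%, was in WT KPC replicate 2 at CT34, and the highest, 0.1345%, in FoxP1SkmKO KPC replicate 1 at CT22. *Col1a1*, *Col1a2* and *Col3a1* alone made up 0.0316% in WT control and 0.0196% in WT KPC mice. Without them, the remaining chains made up 0.0641% and 0.0544%. No test was made on the shares.

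In WT mice, 8 collagen chains were lower in KPC mice than in control mice when averaged over the 6 times, and none was higher. They were the type I chains *Col1a1* and *Col1a2*, the fibrillar chains *Col3a1*, *Col5a1* and *Col5a3*, the basement membrane chain *Col4a2*, the type VI chain *Col6a1* and the fibril-associated chain *Col12a1*. Of all 15637 genes tested, 1.79% passed the same threshold (edgeR quasi-likelihood test, adjusted p under 0.05) and 0.627% passed it as lower. Of the 40 chains, 34 had a log2 fold change below 0, as did 49.4% of all genes, and the median was −0.34 against 0.00 for all genes.

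Among the called chains, those of types I and III had some of the largest changes. *Col1a1* (ENSMUSG00000001506, chromosome 11), the chain that supplies most of type I collagen, ran from 5.26 to 36.1 FPKM with a median of 13.2 in WT control mice and from 2.995 to 19.8 with a median of 7.54 in WT KPC mice. The ranges overlapped, and the fitted log2 fold change was −0.91 ± 0.21 (SE, adjusted p = 0.0188, edgeR). *Col1a2* ran from 3.33 to 14.2 FPKM (median 7.61) in control and from 2.36 to 10.1 (median 4.43) in KPC mice, with a log2 fold change of −0.80 ± 0.19 (adjusted p = 0.0207, edgeR). *Col3a1*, whose product co-assembles with type I in pliable tissue, ran from 4.91 to 21.7 (median 10.5) against 3.0 to 15.5 FPKM (median 6.91), a log2 fold change of −0.71 ± 0.17 (adjusted p = 0.0255, edgeR). Types V and XI start fibrils and set their width. *Col5a1* changed by −0.43 ± 0.11 (adjusted p = 0.0272, edgeR) and *Col5a3* by −0.38 ± 0.09 (adjusted p = 0.0192, edgeR) on the log2 scale. Of the 11 fibrillar chains, 5 passed, 9 had an unadjusted p under 0.05 (15.2% of all genes did) and 10 were below 0. *Col5a2* was at −0.45 ± 0.13 (adjusted p = 0.0722, edgeR), just outside, and *Col24a1* at 0.06.

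*Col6a1* was the called type VI chain. Its FPKM ran from 5.81 to 12.3 with a median of 10.01 in WT control mice and from 3.85 to 13.1 with a median of 7.31 in WT KPC mice, and its log2 fold change was −0.50 ± 0.12 (adjusted p = 0.0311, edgeR). Its partner *Col6a2* was at −0.48 ± 0.14 (adjusted p = 0.0721, edgeR) and *Col6a3* at −0.32 (adjusted p = 0.184, edgeR), so the 3 chains of this filament had estimates on the same side with 1 past the threshold. Among type IV chains, *Col4a2* changed by −0.24 ± 0.06 (adjusted p = 0.0316, edgeR), from a median of 20.7 FPKM (12.5 to 27.0) to 16.2 (9.79 to 24.7). *Col4a1*, at −0.21 ± 0.07 (adjusted p = 0.113, edgeR), did not pass. *Col12a1*, a fibril-associated chain of tendon and muscle fascia, changed by −0.89 ± 0.23 (adjusted p = 0.0318, edgeR) on counts of only 10 to 114 per library. *Col16a1* was at −0.51 ± 0.15 (adjusted p = 0.0721, edgeR). No transmembrane, short-chain, multiplexin or anchoring chain passed, and *Col7a1*, at −0.05 ± 0.09, was near 0.

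Leaving out single libraries or times changed this count. The share of all genes called in each of these fits is not given. The counts therefore do not show whether collagens moved more than other genes. Without CT30 or without CT34 it was 0, and without CT38 it was 2. It was 1 without WT control CT30 replicate 2, WT control CT34 replicate 1 or WT KPC CT38 replicate 2, 2 without WT KPC CT18 replicate 1 or WT KPC CT30 replicate 1, 3 without WT KPC CT22 replicate 1, 4 without WT control CT18 replicate 1 or WT KPC CT34 replicate 2, and 5 without WT control CT38 replicate 1 or WT KPC CT26 replicate 2. *Col1a1* lost its call in 3 of the 48 fits with a library left out, *Col5a3* in 2 and *Col12a1* in 13, and the estimate of each of the 8 chains stayed below 0 in all 48.

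**Figure D2:**
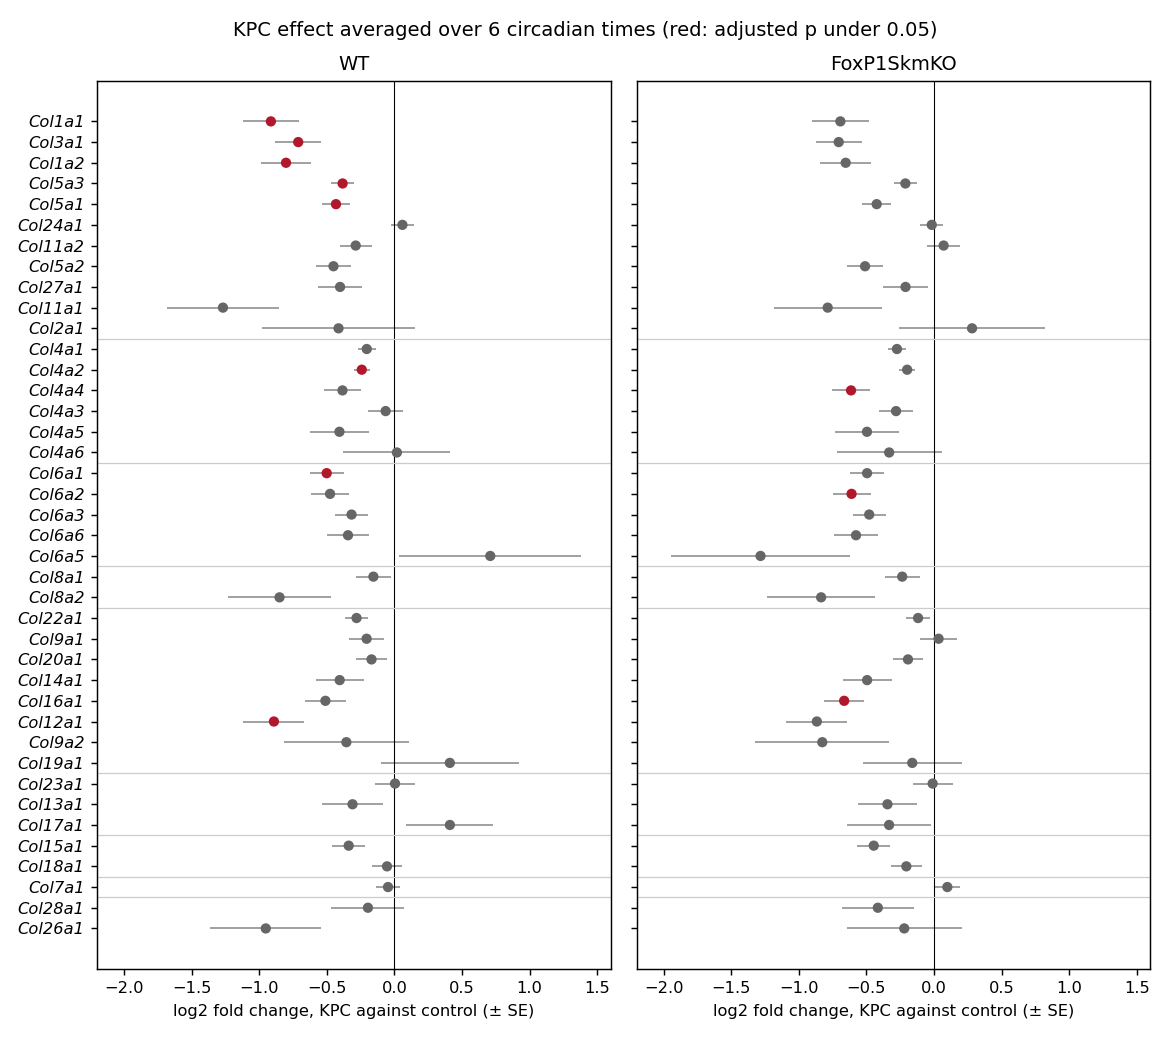
log2 fold change of KPC against control averaged over the 6 circadian times, with SE, for the 40 tested collagen genes ordered by structural class, in WT mice and in FoxP1SkmKO mice. Red marks an adjusted p under 0.05, which 8 genes had in WT and 3 in FoxP1SkmKO mice, and most points lie left of 0 in both.

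In FoxP1SkmKO mice, 3 chains were lower in KPC mice and none was higher. They were *Col16a1*, a fibril-associated chain, *Col4a4*, a minor basement membrane chain, and *Col6a2*. Over all genes 0.428% passed and 0.294% passed as lower. Of the 40 chains, 36 were below 0, against 48.2% of all genes, with a median log2 fold change of −0.38, and 20 had an unadjusted p under 0.05, all lower, against 12.4% of all genes in either direction.

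*Col16a1* ran from 0.288 to 0.705 FPKM (median 0.556) in FoxP1SkmKO control mice and from 0.205 to 0.508 (median 0.365) in FoxP1SkmKO KPC mice, a log2 fold change of −0.67 ± 0.15 (adjusted p = 0.0352, edgeR). *Col6a2* ran from 2.88 to 7.41 (median 4.40) against 1.75 to 6.83 FPKM (median 2.88), a log2 fold change of −0.61 ± 0.14 (adjusted p = 0.0390, edgeR). *Col4a4* had a median of 0.281 FPKM against 0.161, a log2 fold change of −0.61 ± 0.14 (adjusted p = 0.0374, edgeR) on 17 to 65 counts per library. The chains called in WT mice had estimates on the same side here without passing. *Col3a1* was at −0.71 ± 0.17 (adjusted p = 0.0519, edgeR), *Col6a1* at −0.50 (adjusted p = 0.0646, edgeR), *Col1a2* at −0.65 (adjusted p = 0.0953, edgeR) and *Col1a1* at −0.69 ± 0.21 (adjusted p = 0.114, edgeR). *Col5a3* had a smaller estimate, −0.21 ± 0.09 (adjusted p = 0.288, edgeR). By class, 9 of 11 fibrillar, 6 of 6 type IV, 5 of 5 type VI and 3 of 3 transmembrane chains tested were below 0, and *Col7a1* was at 0.10 ± 0.09.

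The count of 3 moved with many libraries. Here too the share of all genes called in each fit is not given, so a move particular to collagens is not shown. It was 16 without FoxP1SkmKO KPC CT22 replicate 1, 13 without FoxP1SkmKO control CT26 replicate 1, 11 without FoxP1SkmKO control CT38 replicate 1, 10 without either WT KPC CT22 mouse, 9 without FoxP1SkmKO KPC CT34 replicate 1, 6 without FoxP1SkmKO KPC CT38 replicate 2, and 5 without either WT control CT34 mouse or replicate 1 of FoxP1SkmKO control CT22 or CT34. It was 0 without replicate 2 of FoxP1SkmKO control CT18, CT22, CT26, CT34 or CT38, replicate 2 of FoxP1SkmKO KPC CT22 or CT34, or replicate 1 of FoxP1SkmKO KPC CT30. It was 1 without either FoxP1SkmKO control CT30 mouse, either FoxP1SkmKO KPC CT26 mouse, or replicate 1 of FoxP1SkmKO KPC CT18 or CT38. WT libraries enter since all 48 were fitted together. With each library left out, the filter, scaling and spread estimate were made anew. Which of these moved the count was not tested. Without CT18, CT30 or CT38 the count was 0, without CT22 it was 9 and without CT34 it was 7.

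The KPC effect was not shown to differ between the genotypes for any collagen gene. The test of the difference, WT minus FoxP1SkmKO, called 0 of 40 chains and 0.00% of all genes (edgeR, with 0 also by DESeq2), and 2 chains had an unadjusted p under 0.05 where 6.52% of all genes did. These were *Col11a2*, at −0.36, and *Col6a5*, at 1.99 on 0 to 16 counts per library, with 0 reads in 11 libraries. The difference was −0.22 ± 0.29 for *Col1a1*, −0.01 ± 0.24 for *Col3a1*, −0.01 ± 0.18 for *Col6a1* and 0.07 ± 0.10 for *Col4a1* (log2, SE). Values with errors of this size do not show that the genotypes responded alike.

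Between genotypes, no collagen chain passed in control mice or in KPC mice. In control mice the edgeR test called 0 of 40 chains against 3.44% of all genes, and DESeq2 called 1, *Col11a2*. For the DESeq2 count and the left-out fits below, the share of all genes is not given. An unadjusted p under 0.05 was found for 3 chains and for 17.2% of all genes (edgeR). *Col11a2*, a fibrillar chain best known from cartilage, ran from 1.01 to 2.56 FPKM (median 1.44) in WT control and from 0.866 to 1.56 (median 1.01) in FoxP1SkmKO control mice, a log2 fold change of −0.40 ± 0.12 (adjusted p = 0.0502, edgeR). 1 chain passed when any of 15 libraries was left out, namely replicate 2 of WT control CT18, CT26, CT30, CT34 or CT38, replicate 1 of WT control CT30, either WT KPC CT26 mouse, replicate 2 of FoxP1SkmKO control CT18 or CT22, replicate 1 of FoxP1SkmKO control CT30 or CT38, either FoxP1SkmKO KPC CT22 mouse, or FoxP1SkmKO KPC CT30 replicate 2. In KPC mice the edgeR test called 0 chains against 0.320% of all genes, and DESeq2 called 0. *Col6a6*, at −0.38, was the single chain with an unadjusted p under 0.05, which 10.8% of all genes had (edgeR). The median over the 40 chains was −0.04 in control and −0.09 in KPC mice. These 4 comparisons share their samples in pairs and are not independent of each other.

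Markers of some other cells moved with the tumor too. Of 7 tenocyte markers (*Scx*, *Tnmd*, *Mkx*, *Fmod*, *Thbs4*, *Comp* and *Kera*), 7 were below 0 in WT KPC mice and 2 passed, *Tnmd* at −1.42 ± 0.37 (adjusted p = 0.0348, edgeR) and *Kera* at −1.56 ± 0.36 (adjusted p = 0.0207, edgeR). Their summed FPKM ran from 17.5 to 57.2 (median 31.8) in WT control, 13.7 to 35.8 (median 19.6) in WT KPC, 18.0 to 48.2 (median 25.7) in FoxP1SkmKO control and 12.6 to 42.3 (median 20.6) in FoxP1SkmKO KPC mice, with *Mkx* under 0.1. Of 8 fibroblast markers, 8 were below 0 in WT KPC mice and 0 passed, while in FoxP1SkmKO KPC mice 7 were below 0 and *Lum*, a fibril-binding proteoglycan, passed at −0.79 ± 0.17 (adjusted p = 0.0231, edgeR). The fibroblast sum ran from 70.7 to 187.9 FPKM (median 142.4) in WT control, 53.4 to 216.5 (median 97.6) in WT KPC, 73.3 to 196.3 (median 123.6) in FoxP1SkmKO control and 61.6 to 178.6 (median 91.1) in FoxP1SkmKO KPC mice. Endothelial sums had medians of 73.5, 63.3, 66.6 and 62.7 FPKM in the same order, and muscle fiber sums had medians of 49112, 49269, 49618 and 49589. Of 6 endothelial markers, 4 were below 0 in WT KPC mice, with a median log2 fold change of −0.06 and 1 called. *Kdr*, a receptor of vessel cells, was lower there (−0.27). In FoxP1SkmKO KPC mice 6 were below 0, with a median of −0.07 and 0 called. Of 6 Schwann cell markers, 5 were below 0 in WT KPC mice, with *Cldn19* lower (−0.60 ± 0.15, adjusted p = 0.0311, edgeR), and 6 in FoxP1SkmKO KPC mice. Their sums ran from 13.6 to 28.8 FPKM (median 16.95), 11.9 to 23.7 (14.2), 11.5 to 18.8 (15.8) and 8.16 to 18.7 (11.1) in the same order of groups. Of 6 mural cell markers, 4 were below 0 in WT and 6 in FoxP1SkmKO KPC mice with 0 called, and their sums ran from 94.9 to 116.2 FPKM (median 100.6), 82.9 to 106.4 (92.6), 91.7 to 119.2 (107.3) and 70.8 to 113.0 (92.9). Macrophage sums had medians of 12.7, 13.5, 12.6 and 15.7 FPKM, with 0 of 6 markers called. The part of these cells in the collagen differences was not tested. Of the 4 epithelial or tumor cell markers, *Krt8*, *Krt18* and *Epcam* had medians under 0.1 FPKM and *Krt19* did not. Their sum ran from 0.108 to 0.491 FPKM in WT control, 0.0317 to 0.478 in WT KPC, 0.144 to 1.05 in FoxP1SkmKO control and 0.0751 to 2.65 in FoxP1SkmKO KPC mice, and none of the 3 tested passed in a KPC or genotype comparison.

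By time, the WT comparison had more chains with both KPC mice low at CT30, CT34 and CT38 than at the earlier times. Both WT KPC mice lay below both WT control mice for 11 of 40 chains at CT18, 7 at CT22, 13 at CT26, 26 at CT30, 26 at CT34 and 25 at CT38. The shares of all genes tested that did so were 17.4%, 17.1%, 23.5%, 17.3%, 18.9% and 20.6%. In FoxP1SkmKO mice the counts were 24 at CT18, 6 at CT22, 5 at CT26, 24 at CT30, 6 at CT34 and 22 at CT38, against 20.2%, 17.4%, 18.3%, 18.4%, 17.3% and 17.5% of all genes. The median log2 fold changes of the 40 chains were −0.03, −0.05, −0.13, −0.53, −0.71 and −0.58 in WT mice, and −0.77, −0.07, −0.26, −0.47, −0.21 and −0.62 in FoxP1SkmKO mice, from CT18 to CT38.

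The chains of 1 muscle share their RNA, so a time with many low chains can rest on 2 or 4 mice. *Col1a1* is given as the example. At CT18 its FPKM was 15.3 and 12.9 in WT control and 10.8 and 19.8 in WT KPC mice, which overlap. At CT26 it was 9.80 and 12.0 against 8.19 and 6.89, with no overlap. At CT34 it was 15.8 and 5.26 against 3.74 and 2.995, and at CT38 it was 24.9 and 11.6 against 6.04 and 4.84, again with no overlap. In FoxP1SkmKO mice the KPC values were lower at CT18, at 4.21 and 3.79 against 9.88 and 16.1 in control mice. At CT22 the FoxP1SkmKO KPC mice were far apart, at 22.9 and 6.04, with control mice between them at 10.4 and 13.2. At CT34 they were at 6.72 and 3.67 against 4.42 and 10.7, which overlap.

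*Col6a1* had less spread between mice of a group, and in WT mice its KPC values were below both control values at every time but CT22. At CT34 the WT control mice were at 9.88 and 5.81 FPKM and the WT KPC mice at 4.07 and 3.85, and at CT18 the FoxP1SkmKO control mice were at 10.1 and 12.3 and the FoxP1SkmKO KPC mice at 3.87 and 4.87. *Col4a1* was closer between conditions. At CT30 WT control mice were at 22.9 and 23.1 FPKM and WT KPC mice at 17.4 and 17.2, while at CT26 control mice were at 23.1 and 25.7 and KPC mice at 23.5 and 23.3. In FoxP1SkmKO mice at CT30, *Col4a1* was at 21.6 and 22.2 in control and 14.5 and 13.7 in KPC mice. Both genotypes therefore had lower *Col4a1* values in both KPC mice at CT30.

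**Figure D3:**
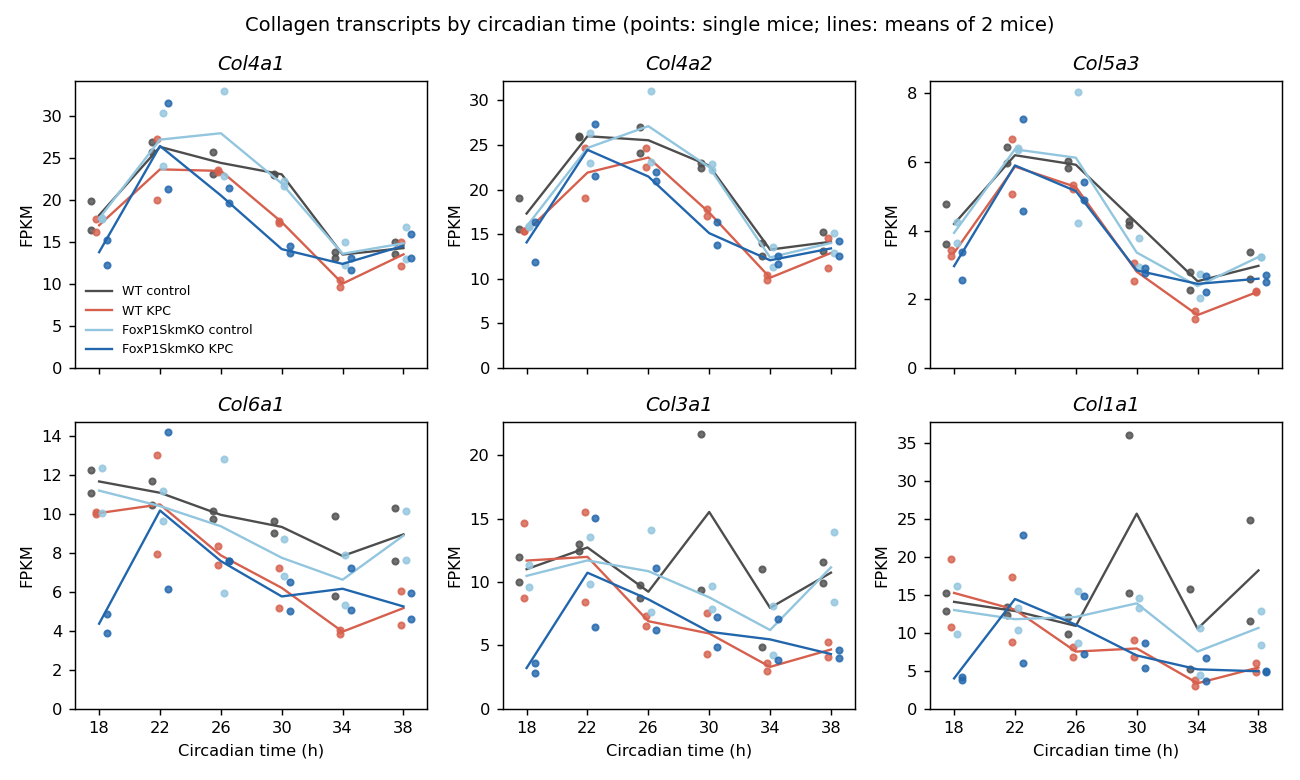
FPKM of *Col4a1*, *Col4a2*, *Col5a3*, *Col6a1*, *Col3a1* and *Col1a1* against circadian time in hours. Points are single mice and lines join the means of 2 mice in each of the 4 genotype and condition groups. *Col4a1*, *Col4a2* and *Col5a3* are high at CT22 and CT26 in every group, and *Col1a1* has widely spaced pairs.

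Few of these single-time gaps passed a test over all genes. With 2 mice against 2 and the spread taken over all 48 libraries, 1 chain passed in WT mice at 1 time. It was *Col4a3*, a minor basement membrane chain, which was higher at CT26, at 0.251 and 0.220 FPKM in KPC mice against 0.109 and 0.114 in control mice (log2 fold change 1.07 ± 0.34, adjusted p = 0.0493, edgeR), at a time when 7.17% of all genes passed. The call rests on 19 to 57 counts per library and was lost with DESeq2 and in 36 of the 48 fits with a library left out, every WT control library among them. At an unadjusted p under 0.05 (edgeR), WT mice had 3, 1, 1, 11, 17 and 13 chains from CT18 to CT38. The shares of all genes were 6.23%, 4.77%, 21.4%, 5.21%, 6.06% and 9.82%. FoxP1SkmKO mice had 18, 1, 5, 9, 2 and 12 such chains, against 13.8%, 4.69%, 8.90%, 8.95%, 4.05% and 8.05% of all genes. In FoxP1SkmKO mice 0 chains passed at any time with edgeR, and DESeq2 called 2, *Col3a1* and *Col6a1*. The shares of all genes above are those of edgeR. None is given for this DESeq2 count or for the left-out fits that follow. With edgeR, 1 chain passed when either FoxP1SkmKO control CT26 mouse or either FoxP1SkmKO KPC CT22 mouse was left out. *Col6a1* at CT18 had a log2 fold change of −1.34 ± 0.31 (adjusted p = 0.0727, edgeR), and *Col1a1* in WT mice at CT30 had −1.69 ± 0.51 (adjusted p = 0.623, edgeR). On the 4 libraries of each WT comparison alone, edgeR called *Col1a1* and *Col1a2* lower at CT26, of 345 genes called. It called 4 chains lower at CT38, of 63 genes, and 0 at CT30 and CT34, of 12 genes each. DESeq2 called 3 at CT26, 1 at CT30, 2 at CT34 and 3 at CT38, of 596, 32, 62 and 79 genes. In the FoxP1SkmKO comparisons alone, edgeR called 6 chains lower at CT18 and 4 at CT38, of 42 and 34 genes. DESeq2 called 7, 3 and 4 lower at CT18, CT30 and CT38, of 97, 18 and 41 genes. A test of whether the KPC effect varied over the 6 times called 0 of 40 chains in WT mice, where 0.883% of all genes passed. An unadjusted p under 0.05 was found for 6 chains and for 12.2% of all genes. In FoxP1SkmKO mice the test called 0 of 40 and 0.00% of all genes, and DESeq2 called 0 in both genotypes. There 3 chains had an unadjusted p under 0.05, against 9.76% of all genes. The change of the gap with time, and its difference between the genotypes at single times, are therefore described and not shown by a test.

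**Figure D4:**
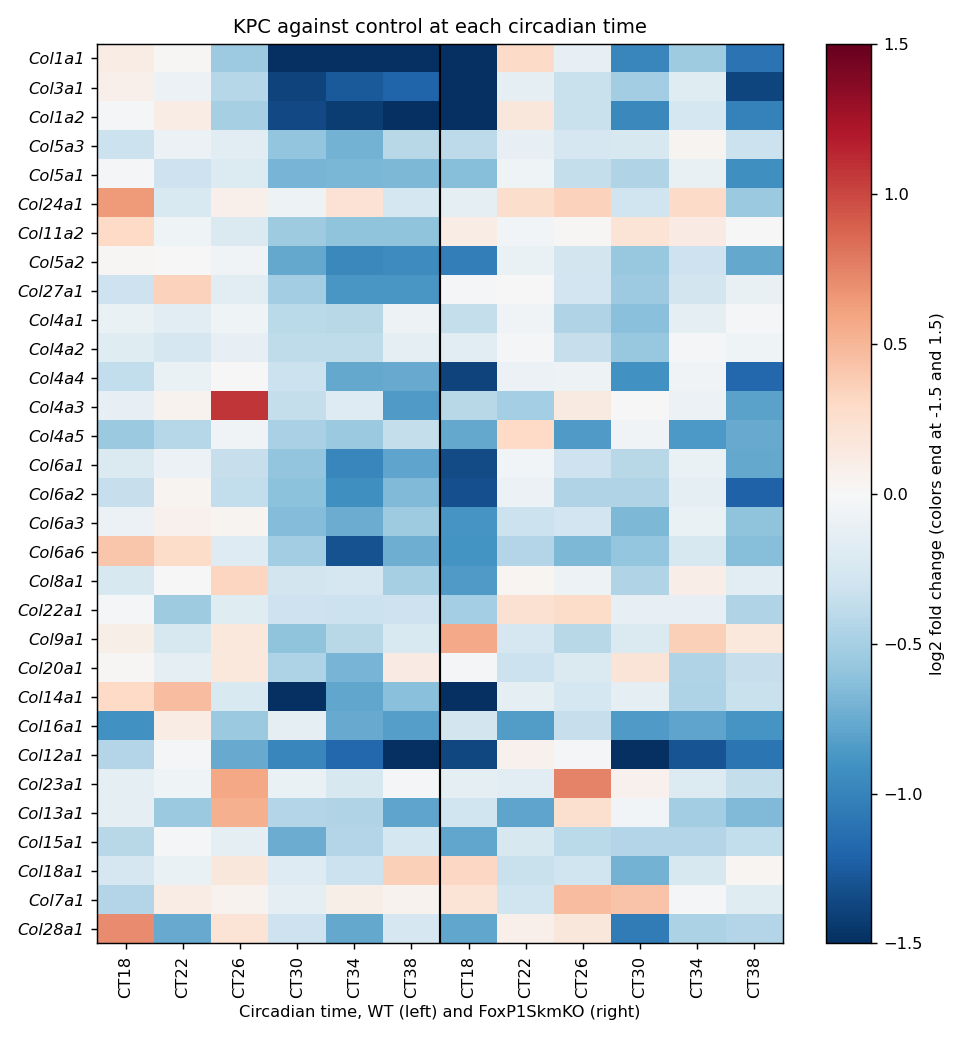
log2 fold change of KPC against control for 31 collagen genes (rows) at the 6 circadian times (columns) in WT and FoxP1SkmKO mice. Colors end at −1.5 and 1.5, with blue below 0. Of the 40 tested chains, 22, 22, 24, 37, 36 and 35 are below 0 from CT18 to CT38 in WT mice, and 34, 26, 27, 34, 32 and 36 in FoxP1SkmKO mice.

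Collagen levels also followed the time of day. A 24 h sinusoid shared by the 4 genotype and condition groups passed for 18 of 40 chains, where 34.9% of all genes passed (edgeR quasi-likelihood test, adjusted p under 0.05). Rhythms of this kind were thus common among all genes, and the count is not particular to collagens. By class, these were 6 of 11 fibrillar, 2 of 6 type IV, 4 of 5 type VI, 3 of 8 fibril-associated, 1 of 3 transmembrane and 1 of 2 multiplexin chains, with *Col7a1*. The called chains of types I, III, IV, V, VI and XV all peaked between CT21.3 and CT24.5, around the change from the active to the rest phase of a nocturnal animal.

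*Col5a3*, a type V chain, had the largest amplitude of the abundant chains. Over the 8 mice of each time its FPKM ran from 4.55 to 7.24 at CT22 and from 1.42 to 2.78 at CT34, with no overlap, and the fitted peak was 2.76 times the trough, at CT23.4 (adjusted p = 1.48e-17, edgeR). *Col4a1* ran from 20.0 to 31.5 FPKM at CT22 (mean 25.9 ± 4.00, SD, n = 8) and from 9.63 to 14.9 at CT34 (mean 12.3 ± 1.77), again with no overlap, with a fitted peak 2.07 times the trough at CT24.1 (adjusted p = 2.61e-14, edgeR). *Col4a2*, across the shared promoter, had a peak 2.12 times the trough at CT24.5 (adjusted p = 8.87e-17, edgeR). These are the genes on either side of the 22 bases printed above.

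The type VI chains peaked somewhat earlier. *Col6a3* had a fitted peak at CT21.3, 1.99 times the trough (adjusted p = 7.69e-08, edgeR), *Col6a2* at CT21.9, 1.85 times, *Col6a1* at CT22.0, 1.69 times, and *Col6a6* at CT21.3, 1.92 times. *Col15a1*, a basement membrane zone chain of muscle and capillaries, peaked at CT23.3, 1.88 times the trough (adjusted p = 8.03e-08, edgeR). *Col5a1*, *Col5a2* and *Col3a1* peaked at CT23.5, CT22.6 and CT22.8, by 1.595, 1.53 and 1.81 times. *Col1a1* passed at CT23.3 with an adjusted p of 0.0446 (edgeR), and *Col1a2* at 0.0524 did not.

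A smaller set had other peaks. *Col7a1*, the anchoring-fibril chain, rose from 3.80 ± 0.776 FPKM at CT18 to 5.82 ± 1.43 at CT26 (SD, n = 8), with a fitted peak at CT28.7, 1.34 times the trough (adjusted p = 0.00440, edgeR). Its medians were 3.67 FPKM at CT18 and 5.32 at CT26, where the highest value, 9.22, was that of a FoxP1SkmKO KPC mouse. *Col22a1* peaked at CT31.7, 1.298 times, and *Col9a1*, a fibril-associated chain best known from cartilage, at CT31.6, 1.33 times. *Col27a1* peaked at CT17.4, by 1.53 times, and *Col20a1* at CT20.3, by 1.29 times. *Col17a1* passed at CT33.0 on 0 to 15 counts per library. *Col12a1*, *Col24a1* and *Col23a1* had fitted amplitudes of 0.08, 0.07 and 0.08 (log2) and did not pass.

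**Figure D5:**
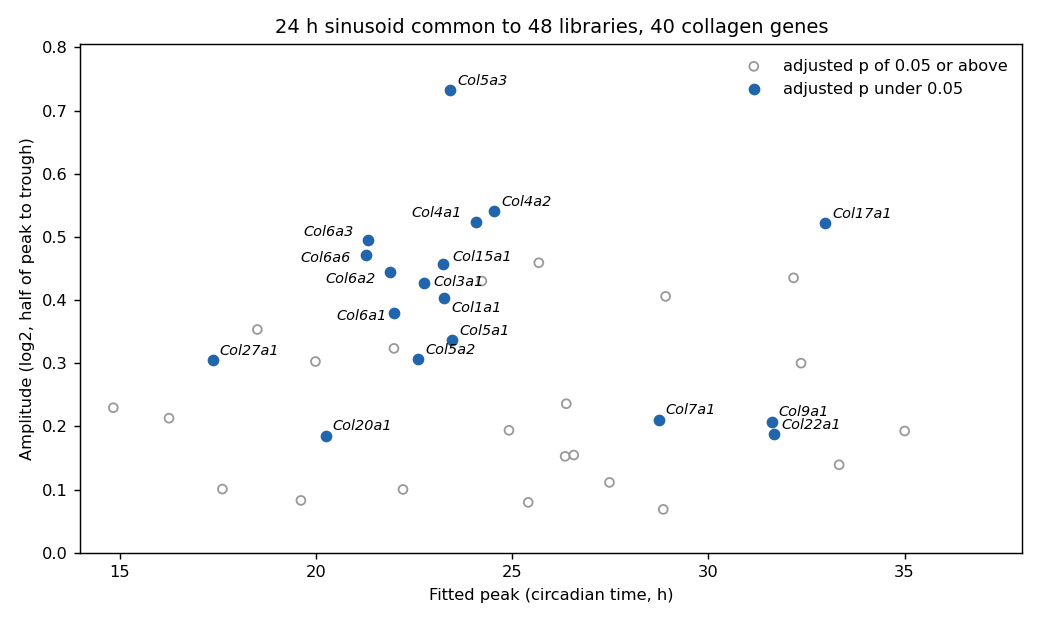
Fitted peak time (circadian hours) against amplitude (log2) of a 24 h sinusoid common to all 48 libraries, for the 40 tested collagen genes. Filled points passed at an adjusted p under 0.05. Most filled points, with *Col5a3*, *Col4a2* and *Col4a1* at the top, lie between CT21.3 and CT24.5, and *Col17a1* stands apart at CT33.0.

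Within single groups of 12 mice, fewer chains passed a sinusoid test at an unadjusted p under 0.01. In WT control mice 5 of 44 passed (*Col4a1*, *Col4a2*, *Col5a3*, *Col6a2* and *Col15a1*), against 4.92% of all genes with varying FPKM, and in WT KPC mice 7 passed (*Col4a1*, *Col4a2*, *Col5a2*, *Col5a3*, *Col6a1*, *Col6a2* and *Col6a3*), against 4.22%. In FoxP1SkmKO control mice 3 passed (*Col4a1*, *Col4a2* and *Col5a3*), against 4.07%, and in FoxP1SkmKO KPC mice 2 of 43 passed (*Col4a2* and *Col5a3*), against 2.63%. *Col4a2* and *Col5a3* thus passed in all 4 groups. After adjustment over all genes (adjusted p under 0.05), 3, 3, 1 and 0 chains passed in the same order. Of all genes with varying FPKM, 150 of 27209, 130 of 27396, 119 of 28711 and 33 of 28430 did so. The fitted FPKM amplitude of *Col5a3* was 1.92, 2.17, 2.02 and 1.75, with peaks at CT23.8, CT23.3, CT23.3 and CT23.6. That of *Col4a1* was 6.73, 6.81, 7.81 and 5.90. Whether the rhythm of any chain differed between groups was not tested. The counts with a mouse left out, given next, have no share of all genes beside them. The WT KPC count was 13 without CT22 replicate 1, and 4 without CT18 replicate 2, CT26 replicate 1, CT30 replicate 1 or either CT34 mouse. The FoxP1SkmKO control count was 5 without CT26 replicate 1 or CT38 replicate 2, the FoxP1SkmKO KPC count was 1 without either CT26 mouse, CT34 replicate 2 or CT38 replicate 2, and the WT control count was 3 without CT22 replicate 1.

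Summed markers also moved with time. Fibroblast markers had means of 151.6, 140.8, 120.6, 97.0, 87.7 and 106.7 FPKM from CT18 to CT38, macrophage markers 21.1, 19.1, 16.1, 9.68, 8.38 and 12.1, and endothelial markers 68.6, 76.9, 77.0, 63.2, 55.9 and 61.6. Of these lists, 5 of 8 fibroblast, 6 of 6 macrophage and 5 of 6 endothelial markers passed the rhythm test, against 0 of 7 tenocyte markers and 34.9% of all genes. Of mural cell markers 5 of 6 passed, while their summed FPKM was nearly level, with means between 96.5 and 102.5. Different mice were used at each time, and the part of these cells in the collagen time courses was not tested.

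Genes that make, trim, cross-link, cleave or bind collagen were followed as a list of 55, of which 49 were tested. In WT mice 3 passed in the KPC comparison, against 1.79% of all genes. *Sparc*, a collagen-binding matrix protein, was lower (log2 fold change −0.44 ± 0.09, adjusted p = 0.00505, edgeR), as was *Loxl2*, a cross-linking oxidase (−0.54 ± 0.14, adjusted p = 0.0412, edgeR), and *Tgm2*, a transglutaminase, was higher (0.29 ± 0.06, adjusted p = 0.00574, edgeR). The list's median was −0.11, and in FoxP1SkmKO mice 0 of 49 passed with edgeR and the median was −0.15. There 18 had an unadjusted p under 0.05, against 12.4% of all genes (edgeR). Hydroxylases and chaperones, 22 of 23 of which were tested, had 1 of these calls, trimming and cross-linking enzymes 2, and the 7 breakdown and 8 receptor genes tested 0.

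Between genotypes, 4 genes of this list differed in control mice, all lower in FoxP1SkmKO mice, against 3.44% of all genes. They were *P4ha1*, a prolyl hydroxylase subunit (−0.31, adjusted p = 2.38e-04, edgeR), *Tmem38b*, a cation channel of the endoplasmic reticulum (−0.31, adjusted p = 4.84e-04, edgeR), *Lox*, the founding cross-linking oxidase (−0.57 ± 0.16, adjusted p = 0.0395, edgeR), and *Itgb1*, the shared subunit of collagen-binding integrins (−0.13, adjusted p = 0.0239, edgeR). In KPC mice 0 of 49 differed between genotypes (edgeR), with 7 at an unadjusted p under 0.05 against 10.8% of all genes. The difference of the KPC effect called 0, with 2 at an unadjusted p under 0.05 against 6.52% of all genes. Over the day, 21 of 49 passed the rhythm test, not far above the 34.9% of all genes. The largest amplitudes were those of the collagenase and gelatinase genes *Mmp9* (0.86, log2, peak CT22.8), *Mmp14* (0.57, CT22.7) and *Mmp2* (0.49, CT20.8), of *Creb3l1*, a transcription factor for secretory and collagen genes (0.76, CT22.0), of *Itga11*, a receptor for fibrillar collagen (0.46, CT20.1), and of *Loxl1*, a cross-linking oxidase (0.45, CT23.1).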

How the data were processed

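The authors deposited raw read counts per gene in tables of each KPC and control pair of groups, and 1 table of FPKM for all 48 libraries. Submitters' processing notes name HISAT2 2.0.5, DESeq2 1.20.0 and mm39, while the study's methods name STAR and HTSeq, so the counter of the deposited counts is not settled, nor is the use of strand. The tables' normalized counts, log2 fold changes and p-values are the authors' own comparisons and were not used. A gene left out of a count table was given the count that its deposited FPKM implies, which was whole within 1e-06 for all 28541 such values.

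Counts were fitted with edgeR 4.0.16 (R 4.3.3, limma 3.58.1) with filterByExpr, TMM and 1 coefficient for each of the 24 groups. The quasi-likelihood test was used, with Benjamini-Hochberg adjustment over 15637 genes. DESeq2 1.42.0 was an alternative. Within groups, a 24 h sinusoid was fitted to FPKM by least squares (scipy 1.17.1, F test with 2 and 9 degrees of freedom). The code was checked on counts with known changes. Mice of 1 group are separate animals. The authors' FPKM compares levels between genes, and counts test differences. Total counts per library limit the precision of the low genes. No batch or date is given in the labels.

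The collagen genes, pathway and marker lists were chosen with earlier results of these data known. By rule, the text names 10 chains (*Col1a1*, *Col1a2*, *Col3a1*, *Col4a1*, *Col4a2*, *Col5a1*, *Col6a1*, *Col6a2*, *Col6a3* and *Col15a1*), every chain that passed a test, and the called pathway genes, at most 6 per comparison. Other chains, such as *Col11a2*, *Col24a1* and those just outside a threshold, were named after their values were seen. Genes such as *Col18a1*, *Col20a1* and *Col10a1* overlap other expressed genes, so their reads are uncertain.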

Additional observations from a re-analysis of the deposited data

Results flagged for a closer look

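Of 240 comparisons of a chain at a time (40 tested chains at 6 times), 5 had both KPC mice on 1 side of both control mice in WT mice and on the other side in FoxP1SkmKO mice. *Col9a1* at CT34 had a log2 ratio of mean FPKM, KPC over control, of −0.43 in WT and 0.35 in FoxP1SkmKO mice. *Col6a6* at CT18, a type VI chain, had a log2 ratio of −0.95 in FoxP1SkmKO and 0.42 in WT mice, from 0.598 and 0.566 FPKM in control and 0.202 and 0.402 in KPC mice of the FoxP1SkmKO genotype, and 0.635 and 0.593 against 0.915 and 0.730 in WT mice. *Col24a1* at CT22 had log2 ratios of −0.23 in WT and 0.27 in FoxP1SkmKO mice. At CT18, *Col28a1* had −0.77 in FoxP1SkmKO and 0.72 in WT mice, and *Col6a5*, at most 0.0902 FPKM in any group, had −1.41 and 3.32. The difference between genotypes was not tested at single times for any of these genes. Gaps without overlap were common among all genes tested. At CT18, both KPC mice lay below both control mice for 17.4% of them in WT and 20.2% in FoxP1SkmKO mice. Both lay above for 18.5% and 20.5%. The share of all genes with opposite sides in the genotypes was not counted. Whether 5 of 240 is more or less than among other genes is therefore not known, and nothing particular to collagens is shown.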

How the results depend on the processing

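The averaged KPC effects of 14 chains (the 10 fixed ones with *Col4a4*, *Col5a3*, *Col12a1* and *Col16a1*) kept their direction in both genotypes under every alternative run. Other estimates were not followed this way, and counts of called chains moved. No share of all genes called is given beside these counts. They therefore do not show whether collagens differed from other genes. Without the filter on low counts, the counts were 18 (WT KPC effect), 17 (FoxP1SkmKO KPC effect), 5 and 5 (genotype, control and KPC mice), 18 and 19 (any single time, WT and FoxP1SkmKO) and 12 and 15 (variation over time), and the cause was not tested. With DESeq2 on all 48 libraries they were 9 for the FoxP1SkmKO KPC effect, 1 for genotype in control mice, and 0 and 2 at any single time. On the 4 libraries of each comparison alone, edgeR called 4 and 6 and DESeq2 called 6 and 9 chains at any single time, none of which was *Col4a3*. Averages without CT30, CT34 and CT38 gave 0, 0 and 2 in WT mice. Averages without CT18, CT22, CT30, CT34 and CT38 gave 0, 9, 0, 7 and 0 in FoxP1SkmKO mice, and without CT22 genotype in control mice gave 1. For the sinusoid within groups, the adjusted threshold left 3, 3, 1 and 0 chains, and in WT KPC mice log2(FPKM + 1) gave 11 and log2(FPKM + 0.1) gave 12.

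With a library left out, the counts ranged from 1 to 11 (WT KPC effect), 0 to 16 (FoxP1SkmKO), 0 to 1 (genotype in control mice), 0 to 1 (any single time, each genotype) and 15 to 20 (common rhythm). Within groups they ranged from 3 to 6, 4 to 13, 2 to 5 and 1 to 3. No share of all genes called is given beside these ranges either.

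Replicate numbers did not pair the mice. Over 276 pairs of groups, the correlation of same-numbered deviations had a median of −0.0088 and passed 0.1 in 24. With the replicate block, the WT count at any single time was 0 in place of 1, and the block kept the counts of 8, 3 and 18 for the KPC effects and the rhythm. Low counts limit *Col12a1*, *Col16a1* (24 to 100 per library), *Col4a4*, *Col4a3*, *Col6a5* and *Col17a1*, among others.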
